A study of Homo sapiens with 6 samples.

Results

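Direct target genes of the transcription factor p53 were followed in SZ95 sebocytes, a human sebaceous gland line immortalized with a simian virus large T antigen, after exposure to fine particulate matter (PM2.5). The 31 genes were taken by symbol from a list of p53 targets, and all 31 were found among the 27685 genes of the read count table. The 3 control libraries came from cells given the vehicle, 20% ethanol, and the 3 PM2.5 libraries from cells given PM2.5 at 100 μg/mL, which had been resuspended in 20% ethanol. Both groups carried the T antigen, had a wild-type genotype according to the labels, and were kept for 24 h in phenol-red free medium. The line is a single established one, and whether the replicates were separate cultures is not given in the sources used here. The p-values therefore measure only the spread among the libraries sequenced, which may be technical. In bulk RNA, a change in the share of cells that express a gene and a change in RNA per cell cannot be told apart.

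In normal cells p53 is held low by the ubiquitin ligase MDM2 and its relative MDM4, and DNA damage or other stress frees it to switch on genes for cell cycle arrest, DNA repair, metabolic adjustment and cell death. MDM2 is itself a p53 target, which closes a negative feedback loop. Large T antigen binds the DNA-binding region of p53 and keeps it from its targets, and it also binds the RB family of proteins, which frees the E2F transcription factors. Many p53 targets also respond to other regulators, such as the integrated stress response factor ATF4, so their RNA levels do not report on p53 alone. The T antigen transcript was not analysed here, and no p53 protein was measured in these libraries.

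Most of the changes that passed the test among the p53 targets were falls, and the largest single change was a rise in GDF15. At an edgeR adjusted p under 0.05, 12 of the 31 genes were lower with PM2.5 and 4 were higher, while 15 did not pass. The lower genes were DRAM1, BTG1, PLK2, MDM2, SESN2, BTG2, PPM1D, TP53INP1, GADD45B, TRIAP1, AEN and PHLDA3. The higher genes were GDF15, PLK3, GADD45A and ASCC3. Called genes were 51.6% of the 31, beside 43.6% of the 16049 genes tested, lower genes were 38.7% beside 22.0%, and higher genes 12.9% beside 21.7%. The median log2 fold change (PM2.5 against control, from counts scaled with trimmed mean of M-values factors, TMM) was -0.08 over the 31 genes and 0.00 over all tested genes, and that of the 31 was -0.13 without control replicate 1 and -0.03 without PM2.5 replicate 1. Of the 31 genes, 7 lay within the lowest 10% of all tested genes by log2 fold change (below -0.47), and 1 within the highest 10% (above 0.56). With library size as the only scaling, which moved the median of all genes up by 0.08, 10 of the 31 were higher and 11 lower, and 65.2% of all called genes were higher in place of 49.7%. None of the 31 changed more than 2-fold at an unadjusted p under 0.05, a threshold of the study, by edgeR, limma-voom or DESeq2, while by edgeR 5.62% of all tested genes did (3.26% higher and 2.36% lower). A change of more than 1.5-fold at an unadjusted p under 0.01 was passed by GDF15 upward and by DRAM1, BTG1 and PLK2 downward, and by 11.9% of all tested genes (6.62% higher and 5.28% lower). That count of 4 was 1 with library size only and 2 without PM2.5 replicate 2. It was 3 with upper-quartile scaling factors, with no filter on low counts and with a filter at a mean count of 50.

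**Figure D1:**
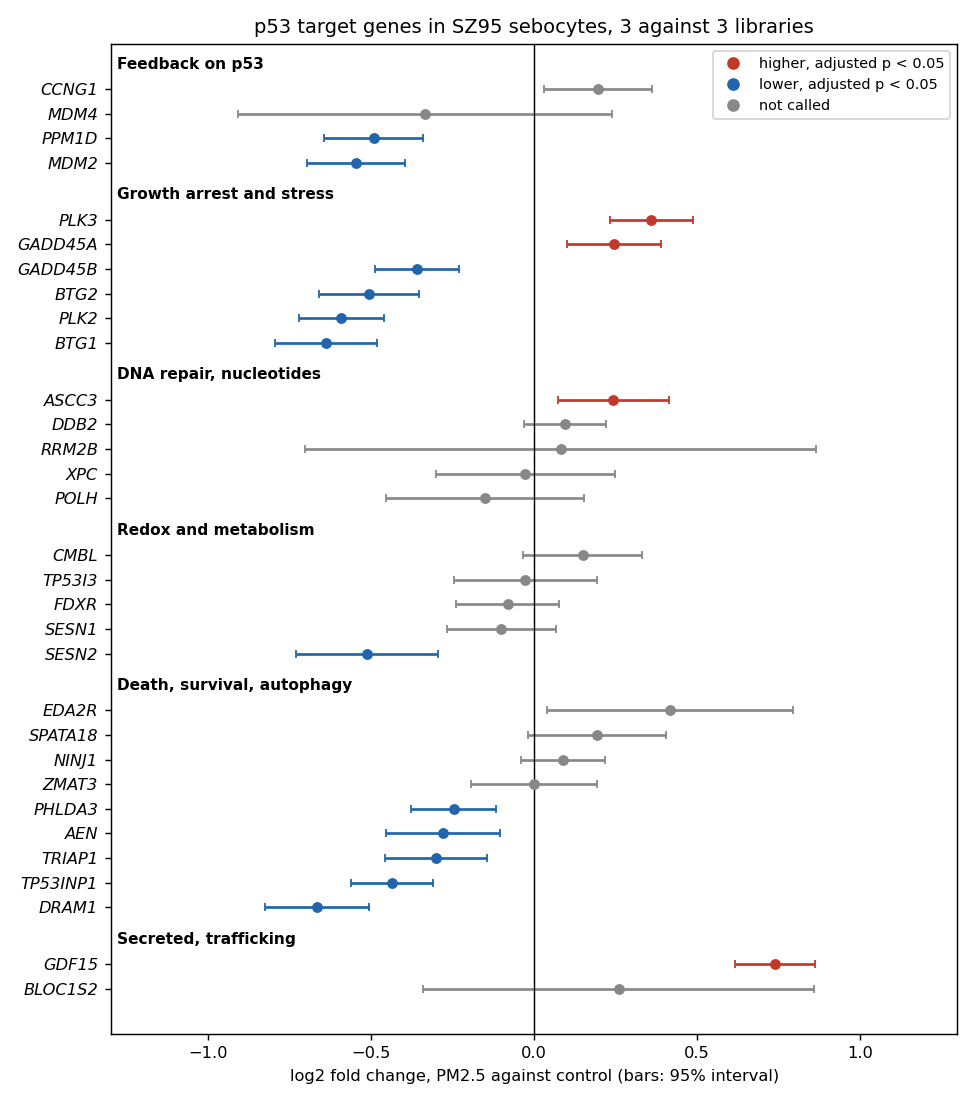
Log2 fold change of each p53 target gene, PM2.5 against control, with its 95% interval, grouped by the role of the gene product. The 12 genes called lower lie between -0.67 and -0.25, and the 4 called higher between 0.24 and 0.74. The widest intervals belong to RRM2B, BLOC1S2 and MDM4.

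The feedback genes of p53 showed falls in MDM2 and PPM1D. MDM2 (Gene ID 4193), the ubiquitin ligase that marks p53 for degradation, stood at 293, 308 and 306 CPM (read counts over the TMM-adjusted library size) in the control libraries and at 186, 215 and 219 CPM in the PM2.5 libraries. Every PM2.5 library was below every control library. The mean of MDM2 was 302 ± 8.21 CPM in control and 207 ± 17.9 CPM with PM2.5 (SD, n = 3). Its log2 fold change was -0.55 (SE 0.066, adjusted p = 0.000519 by edgeR). PPM1D (Gene ID 8493), which encodes the phosphatase WIP1 that reverses p53-activating phosphorylations, was at 64.6, 63.3 and 69.1 CPM in control and 43.8, 45.6 and 50.5 CPM in PM2.5 libraries. Its groups did not overlap, and its log2 fold change was -0.49 (SE 0.066, adjusted p = 0.000823 by edgeR). CCNG1, the cyclin G1 gene, whose product directs a phosphatase to MDM2, had a log2 fold change of 0.20 and did not pass (edgeR adjusted p = 0.0566). It passed with DESeq2 (adjusted p = 0.0294), under a block on replicate number (adjusted p = 0.0385 by edgeR) and without control replicate 1 (adjusted p = 0.0488 by edgeR). CCNG1 also passed with upper-quartile scaling factors (adjusted p = 0.0319 by edgeR) and with library size only (adjusted p = 0.02 by edgeR). MDM4 (Gene ID 4194), the relative of MDM2 that blocks p53's activation domain, stood at 49.97, 50.8 and 49.2 CPM in control libraries and at 22.4, 50.9 and 45.4 CPM in PM2.5 libraries. PM2.5 replicate 1 was thus far below the other five libraries, and the groups overlapped. The log2 fold change of MDM4 was -0.34 with a 95% interval of -0.91 to 0.24 (edgeR adjusted p = 0.311), and -0.05 without PM2.5 replicate 1.

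All 6 genes of growth arrest and stress signaling passed the test, 2 higher and 4 lower, beside 43.6% of all tested genes (21.7% higher and 22.0% lower). In 2 paralog pairs among them the members moved in opposite directions. PLK2 (Gene ID 10769) and PLK3 (Gene ID 1263) encode polo-like kinases that respond to stress, in contrast to the mitotic kinase PLK1. PLK2 was at 330.1, 326 and 303 CPM in control and at 224, 200.3 and 212 CPM in PM2.5 libraries. It fell by a log2 fold change of -0.59 (SE 0.057, adjusted p = 0.000217 by edgeR). PLK3 was at 29.2, 30.7 and 30.9 CPM in control and at 37.2, 38.9 and 40.5 CPM in PM2.5 libraries. It rose by 0.36 (SE 0.055, adjusted p = 0.00155 by edgeR), and neither gene's groups overlapped. GADD45A (Gene ID 1647) and GADD45B (Gene ID 4616) encode small stress-induced proteins that bind cell cycle kinases and PCNA and act on the p38 and JNK kinase pathways. GADD45A was at 35.4, 34.6 and 39.7 CPM in control and at 43.3, 43.4 and 43.1 CPM in PM2.5 libraries. Its log2 fold change of 0.24 (SE 0.062, adjusted p = 0.0144 by edgeR) lost its call without control replicate 1 (edgeR adjusted p = 0.0545) or control replicate 2 (edgeR adjusted p = 0.0517). GADD45B was at 39.3, 39.9 and 39.1 CPM in control and at 32.4, 28.998 and 30.8 CPM in PM2.5 libraries, a log2 fold change of -0.36 (SE 0.056, adjusted p = 0.00167 by edgeR).

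The antiproliferative genes BTG1 and BTG2, whose products recruit the deadenylase complex that shortens mRNA tails, both fell. BTG1 (Gene ID 694) went from 113, 116 and 122 CPM in control to 75.4, 68.8 and 81.6 CPM in PM2.5 libraries. The log2 fold change of BTG1 was -0.64 (SE 0.068, adjusted p = 0.000309 by edgeR). BTG2 (Gene ID 7832), the classical p53-induced member, went from 177, 181 and 204 CPM to 124, 134 and 137 CPM, a log2 fold change of -0.51 (SE 0.066, adjusted p = 0.000755 by edgeR). For both genes the lowest control library stood above the highest PM2.5 library. In the GENCODE 29 annotation 503 of the 4854 exonic bases of BTG1 also belong to LINC01619 on the same strand, so some of its reads may be shared.

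The ratio of read counts of 2 genes in a library does not depend on how libraries are scaled, and it was taken for 5 paralog pairs. PLK2 had 11.3, 10.6 and 9.80 reads per read of PLK3 in control and 6.03, 5.15 and 5.24 in PM2.5 libraries. GADD45A had 0.8997, 0.866 and 1.01 reads per read of GADD45B in control and 1.34, 1.4965 and 1.40 in PM2.5 libraries. SESN1 had 0.467, 0.446 and 0.427 reads per read of SESN2 in control and 0.595, 0.633 and 0.554 in PM2.5 libraries. In these 3 pairs the groups did not overlap. Each reached p = 0.1 in a two-sided exact permutation test of the log ratio (0.167 adjusted over the 5 pairs). No smaller p is possible with 3 against 3 libraries, and the pairs were chosen after the values were seen. For PLK2 to PLK3 and GADD45A to GADD45B, separation and p were fixed by the levels above, which lay apart in opposite directions. Those p-values therefore add nothing to the tests per gene. SESN1 overlapped between the groups, so the separation of SESN1 to SESN2 was not fixed in this way. The ratios of MDM2 to MDM4 (p = 0.7) and of BTG1 to BTG2 (p = 0.2) overlapped between the groups in the same exact test.

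**Figure D2:**
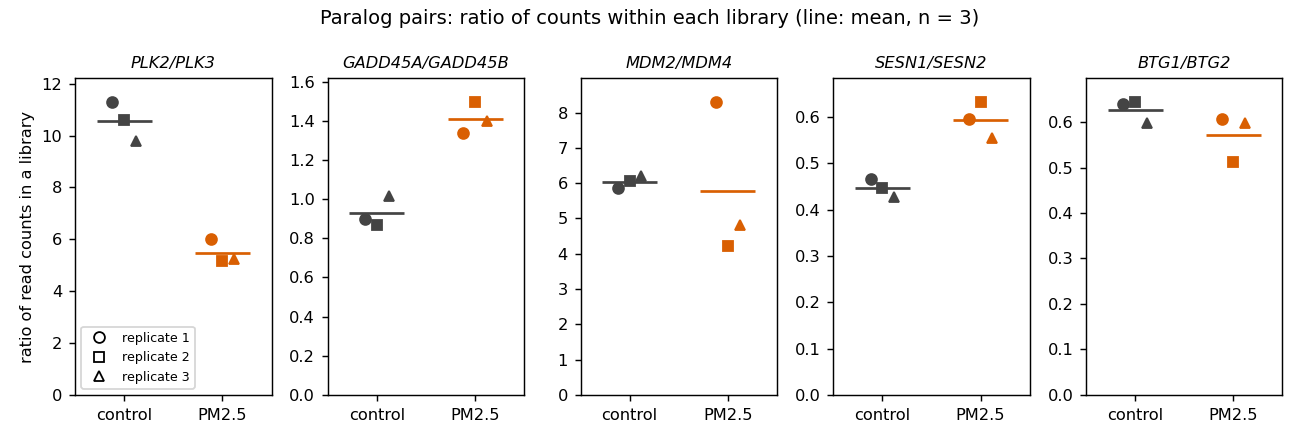
Ratio of read counts of paralog pairs within each library, by group, with a line at the mean of 3 libraries and a marker shape for each replicate number. PLK2 to PLK3 went from a mean of 10.6 in control to 5.47 with PM2.5, while the MDM2 to MDM4 ratio of PM2.5 replicate 1 (8.30) stood above the other five libraries.

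Of the 5 genes of DNA repair and nucleotide supply, 1 was called, and it rose, beside 43.6% of all tested genes called. ASCC3, a helicase that opens DNA for alkylation repair, was at 88.7 to 108 CPM in control and at 118 to 121 CPM in PM2.5 libraries, a log2 fold change of 0.24 (SE 0.074, adjusted p = 0.0289 by edgeR). Its call ended when any PM2.5 library was left out (adjusted p = 0.0863, 0.0955 and 0.0758 by edgeR for replicates 1, 2 and 3). The nucleotide excision repair genes DDB2 and XPC, both textbook p53 targets that sense ultraviolet lesions, had log2 fold changes of 0.09 (95% interval -0.03 to 0.22) and -0.03 (-0.30 to 0.25). DDB2 passed without PM2.5 replicate 3, with a log2 fold change of 0.15 (adjusted p = 0.0465 by edgeR). POLH, the polymerase that copies past such lesions, had -0.15 (95% interval -0.46 to 0.15). POLH passed without PM2.5 replicate 2, with a log2 fold change of -0.30 (edgeR adjusted p = 0.0416). RRM2B (Gene ID 50484), the p53-inducible subunit of ribonucleotide reductase, was at 73.6, 76.2 and 33.4 CPM in control and at 45.7, 55.2 and 93.0 CPM in PM2.5 libraries. Its lowest library was a control and its highest a PM2.5 library, with the others between. The log2 fold change of RRM2B was 0.08 (95% interval -0.70 to 0.87, edgeR adjusted p = 0.864), and it was -0.21 without control replicate 3 and -0.27 without PM2.5 replicate 3. The intervals of XPC, POLH and RRM2B leave room for changes as large as those of several called genes.

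Among the genes of redox control and metabolism, SESN2 fell and the other 4 did not pass. That is 20% called, all lower, beside 43.6% of all tested genes called and 22.0% lower. Sestrins restrain the growth kinase complex mTORC1, and SESN2 serves as its leucine sensor. SESN2 (Gene ID 83667) was at 58.8, 58.3 and 70.8 CPM in control and at 41.1, 42.1 and 48.7 CPM in PM2.5 libraries, without overlap. Its log2 fold change was -0.51 (SE 0.095, adjusted p = 0.00356 by edgeR). SESN1 (Gene ID 27244), the sestrin most tied to p53, was at 27.5, 26.0 and 30.2 CPM in control and at 24.4, 26.65 and 26.97 CPM in PM2.5 libraries, with overlap. The log2 fold change of SESN1 was -0.10 (95% interval -0.27 to 0.07, edgeR adjusted p = 0.294). TP53I3, a quinone oxidoreductase also called PIG3, had a log2 fold change of -0.03 (95% interval -0.25 to 0.19). FDXR, the reductase that passes electrons to ferredoxin for mitochondrial P450 enzymes, had -0.08 (-0.24 to 0.08), and the hydrolase gene CMBL had 0.15 (-0.03 to 0.33). CMBL passed without control replicate 3, with 0.23 (adjusted p = 0.0301 by edgeR).

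Of the 9 genes of cell death, survival and autophagy, 5 were lower and 0 higher by edgeR, limma-voom and DESeq2, and EDA2R was higher at an unadjusted p of 0.0344 by edgeR. Over all tested genes 22.0% were lower and 21.7% higher. DRAM1 (Gene ID 55332), a lysosomal membrane protein that promotes autophagy downstream of p53, showed the largest fall of the 31 genes. It was at 50.4, 48.4 and 54.1 CPM in control and at 32.1, 29.9 and 34.4 CPM in PM2.5 libraries, a log2 fold change of -0.67 (SE 0.069, adjusted p = 0.000286 by edgeR). TP53INP1 (Gene ID 94241), a stress protein that links p53 to autophagy and death, went from 72.2, 74.4 and 76.4 CPM to 51.9, 55.1 and 57.9 CPM, a log2 fold change of -0.44 (SE 0.055, adjusted p = 0.000633 by edgeR). In both genes the PM2.5 libraries lay wholly below the controls.

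Smaller falls were seen in TRIAP1, AEN and PHLDA3. TRIAP1 (Gene ID 51499), which protects mitochondria by carrying phosphatidic acid, went from 34.9, 32.9 and 38.6 CPM to 29.1, 27.98 and 29.4 CPM, a log2 fold change of -0.30 (SE 0.068, adjusted p = 0.00878 by edgeR). PHLDA3 (Gene ID 23612), which competes with the kinase AKT for membrane lipid, went from 146, 139 and 150.4 CPM to 118, 118 and 131 CPM, a log2 fold change of -0.25 (SE 0.057, adjusted p = 0.00924 by edgeR). AEN (Gene ID 64782), an exonuclease that enhances apoptosis, went from 50.6, 49.6 and 59.9 CPM to 43.5, 43.4 and 45.0 CPM, a log2 fold change of -0.28 (SE 0.076, adjusted p = 0.0185 by edgeR). The call of AEN ended with library size only (edgeR adjusted p = 0.0525) and when PM2.5 replicate 1 or 2 was left out (adjusted p = 0.0561 and 0.056 by edgeR). EDA2R, the ectodysplasin A2 receptor, was the rarest of the 31 transcripts by count, with 45 to 82 reads per library. All 3 PM2.5 libraries of EDA2R (1.11, 1.11 and 1.23 CPM) lay above the controls (0.739, 0.878 and 0.955 CPM), but its log2 fold change of 0.42 (95% interval 0.04 to 0.80) did not pass (edgeR adjusted p = 0.0716). SPATA18, which drives mitochondrial quality control, had a log2 fold change of 0.19 (-0.02 to 0.41), and it passed without control replicate 3 (0.28, adjusted p = 0.0272 by edgeR). NINJ1, which ruptures the plasma membrane of dying cells, had 0.09 (-0.04 to 0.22), and ZMAT3, an RNA-binding splicing regulator, had 0.00 (-0.19 to 0.19), each with its 95% interval.

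GDF15 (Gene ID 9518), a secreted stress hormone of the TGF-beta superfamily that suppresses appetite and is induced by both p53 and ATF4, had the largest change of the 31 genes. It was at 56.1, 56.8 and 58.7 CPM in control and at 89.7, 97.7 and 99.3 CPM in PM2.5 libraries. The lowest PM2.5 library stood well above the highest control. GDF15 rose 1.67-fold, a log2 fold change of 0.74 (SE 0.054, adjusted p = 7.5e-05 by edgeR). BLOC1S2, a subunit of complexes that position lysosomes and build lysosome-related organelles, was at 15.7, 18.0 and 16.4 CPM in control and at 14.2, 15.6 and 30.4 CPM in PM2.5 libraries. PM2.5 replicate 3 alone was above the controls. The log2 fold change of BLOC1S2 was 0.26 (edgeR adjusted p = 0.455), and it turned to -0.16 without that library.

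**Figure D3:**
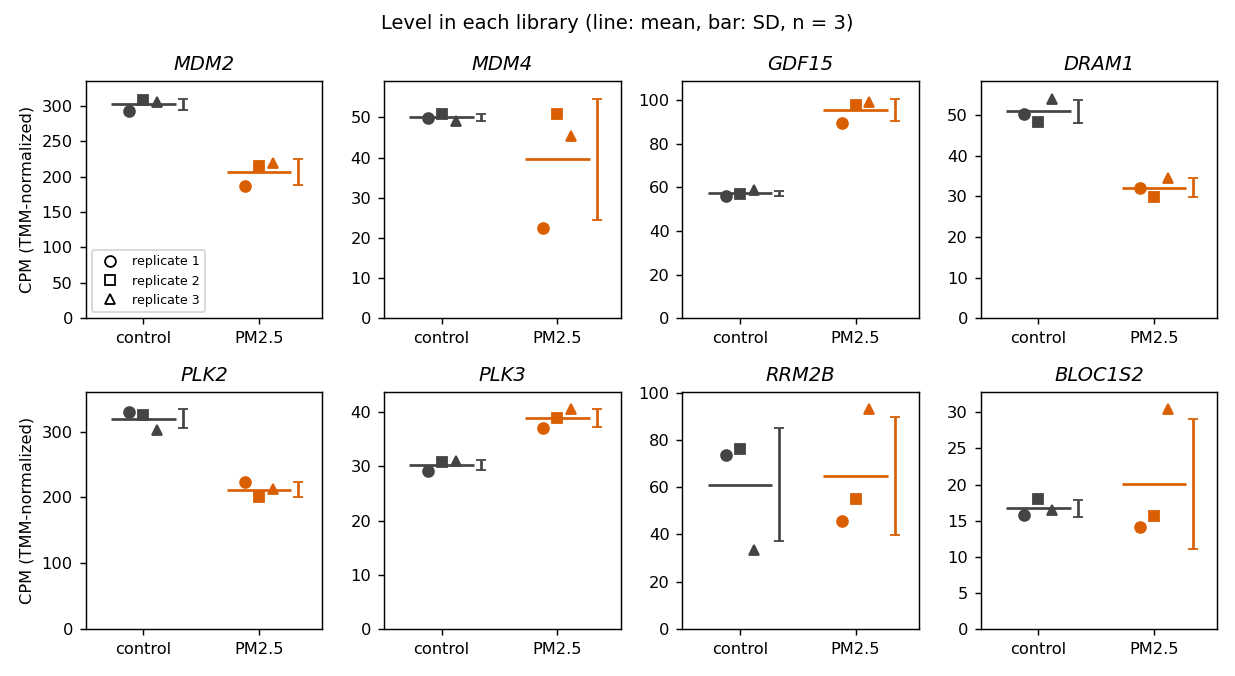
TMM-normalized CPM of 8 p53 target genes in each library, with the mean (line) and SD (bar) of 3 libraries per group and a marker shape for each replicate number. MDM2, DRAM1 and PLK2 fell and GDF15 and PLK3 rose without overlap between the groups, while single libraries stood apart in MDM4 (22.4 CPM), RRM2B (33.4 and 93.0 CPM) and BLOC1S2 (30.4 CPM).

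The spread between libraries was small for most of the genes. The coefficient of variation within a group had a median of 7.53% in control and 5.92% in PM2.5 libraries over the 31 genes, beside 6.75% and 5.62% over all tested genes. It exceeded 20% for RRM2B in both groups and for MDM4 and BLOC1S2 in the PM2.5 group, and no called gene was among these. The libraries that stood apart differed from gene to gene, with PM2.5 replicate 1 low in MDM4, PM2.5 replicate 3 high in BLOC1S2 and RRM2B, and control replicate 3 low in RRM2B. The groups did not overlap in 18 of the 31 genes, 12 with all PM2.5 libraries below and 6 with all above, while over all tested genes 28.1% lay below, 28.1% above and 56.3% either way. The summed level of the 31 genes was 2593 to 2677 CPM in control and 2176 to 2386 CPM in PM2.5 libraries. The sum over all tested genes also fell with this scaling, from 1020900 to 1037800 CPM in control to 964310 to 979160 CPM in PM2.5 libraries. Part of the fall in the summed level is thus not particular to the 31 genes. Abundant genes weigh most in the sum of the 31, and 3 of them fell. The group means went from 320 to 212 CPM in PLK2, 302 to 207 CPM in MDM2 and 187 to 132 CPM in BTG2. By log2 fold change, 18 of the 31 genes were below 0 and 13 above.

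Sequence upstream of the transcription start was read for the 2 called genes with the largest rises, GDF15 and PLK3, and for DRAM1 and PLK2, because PLK2 and PLK3 are relatives that moved in opposite directions and DRAM1 and GDF15 had the largest fall and the largest rise. The 250 bases before the start came from RefSeq (GRCh38.p14), a newer build than the hg19 that the labels name, and were matched by Gene ID. Both strands were searched for the core that the aryl hydrocarbon receptor (AHR) binds, GCGTG, for the antioxidant response element of NRF2, TGACNNNGC, for the ATF4 element TGATGNAA, and for the p53 consensus half-site. Capitals mark each match, on either strand. In GDF15 (chr19:18385908-18386157, + strand) none of the 4 motifs was found. In PLK3 (chr1:44800127-44800376, + strand) the capitals are an ATF4 element that begins 133 bases before the start. In PLK2 (chr5:58460087-58460336, - strand) they are a p53 half-site that begins 132 bases before the start and an AHR core at 116 bases, which do not overlap. In DRAM1 (chr12:101877330-101877579, + strand) they are an AHR core at 194 bases.
GDF15: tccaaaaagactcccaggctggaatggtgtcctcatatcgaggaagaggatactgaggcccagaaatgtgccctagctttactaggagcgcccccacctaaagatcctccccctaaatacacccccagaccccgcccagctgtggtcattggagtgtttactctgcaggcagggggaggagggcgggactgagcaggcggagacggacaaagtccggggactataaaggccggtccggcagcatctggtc
PLK3: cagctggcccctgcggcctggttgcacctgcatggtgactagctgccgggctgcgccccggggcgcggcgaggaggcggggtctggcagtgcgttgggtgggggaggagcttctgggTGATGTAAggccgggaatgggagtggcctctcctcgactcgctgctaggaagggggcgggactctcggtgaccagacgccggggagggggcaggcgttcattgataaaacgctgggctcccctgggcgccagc
PLK2: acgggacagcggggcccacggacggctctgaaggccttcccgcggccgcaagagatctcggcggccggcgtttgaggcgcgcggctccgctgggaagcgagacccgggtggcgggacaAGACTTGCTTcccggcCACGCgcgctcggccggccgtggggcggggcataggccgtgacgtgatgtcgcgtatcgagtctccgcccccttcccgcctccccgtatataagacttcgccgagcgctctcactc
DRAM1: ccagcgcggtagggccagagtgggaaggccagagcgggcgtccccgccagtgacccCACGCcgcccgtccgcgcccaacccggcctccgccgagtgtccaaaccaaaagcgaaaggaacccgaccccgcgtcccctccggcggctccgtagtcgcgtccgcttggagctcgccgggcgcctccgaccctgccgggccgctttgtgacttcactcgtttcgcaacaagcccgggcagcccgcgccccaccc
Of the 31 genes, 25 had an upstream sequence in the table. The AHR core was present in 10 of the 25 (40%), beside 31.9% of 27305 promoters of the same length, and in 4 of the 10 genes called lower and neither of the 2 called higher that had a sequence. The NRF2 element was in 3 of 25 (12%, beside 11%), the ATF4 element in PLK3 alone (4%, beside 3.19%), and the p53 half-site in AEN, FDXR and PLK2 (12%, beside 5.53%). Functional p53 elements often lie in introns or farther upstream, as in MDM2, and a match of letters is not a bound site.

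Other genes of the p53 pathway were counted in the same fit. Of 25 regulators of p53, 12 were lower, 3 higher and 10 did not pass, with a median log2 fold change of -0.13. Lower genes were 48% of the list beside 22.0% of all tested genes, higher genes 12% beside 21.7%, and called genes 60% beside 43.6%. CDKN2A, the locus of p16 and of the MDM2 inhibitor ARF, whose reads cannot be split between the pair here, fell with a log2 fold change of -0.73 (adjusted p = 0.000266 by edgeR), from 164 ± 10.8 CPM to 99.1 ± 8.34 CPM (SD, n = 3). The kinase gene DYRK2 also fell, with a log2 fold change of -0.67 (adjusted p = 8.48e-05 by edgeR). The higher regulators were the p53 relative TP63 (0.49), the kinase HIPK2 (0.42) and the checkpoint kinase CHEK2 (0.20), as log2 fold changes. HIPK2 kept its call in all 15 alternative settings. TP63 lost its call when control replicate 1 or 3 or PM2.5 replicate 1 was left out (adjusted p up to 0.0703). CHEK2 lost its call under the block on replicate number and when replicate 1 or 2 of either group was left out (adjusted p up to 0.104). The count of higher regulators was 1 without control replicate 1 or PM2.5 replicate 1.

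Of 57 further p53 targets, 24 were lower, 10 higher and 23 did not pass, with a median log2 fold change of -0.16. Here 42.1% were lower, beside 22.0% of all tested genes, 17.5% were higher, beside 21.7%, and 59.6% were called, beside 43.6%. CDKN1A (Gene ID 1026), the p21 inhibitor of cyclin-dependent kinases and the best known p53 target, was at 322, 337 and 391 CPM in control and at 297, 330.3 and 369.8 CPM in PM2.5 libraries, with overlap. Its log2 fold change was -0.07 (95% interval -0.29 to 0.15, edgeR adjusted p = 0.563), and it passed in none of 15 alternative settings. The largest falls were in ACER2, an alkaline ceramidase (-1.08), RAP2B, a small GTPase (-1.06), and STEAP3, a ferrireductase (-0.96), as log2 fold changes. The largest rises were in the placental growth factor PGF (0.77), the lysosomal fucosidase FUCA1 (0.71) and the calcium channel gene ORAI3 (0.67). These 6 kept their calls in all 15 alternative settings, and RAP2B and PGF are among the genes that the study picked from these libraries. The death gene BAX had a log2 fold change of 0.03 (95% interval -0.15 to 0.21, adjusted p = 0.782 by edgeR). Other death genes of the list moved both ways. PERP (-0.43), PMAIP1 (-0.40) and APAF1 (-0.37) were called lower and TNFRSF10A (0.39) higher, as log2 fold changes. BBC3, FAS, PIDD1, TNFRSF10B, TNFRSF10C and TNFRSF10D did not pass. BAX and these death genes were named after their values were seen.

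E2F and DREAM target genes, which drive replication and mitosis and which p53 represses through p21, were counted as the other arm of T antigen action. Of 46 genes, 14 were lower, 2 higher and 30 did not pass, with a median log2 fold change of -0.07. Called genes were 34.8% of the list beside 43.6% of all tested genes. Lower genes were 30.4% beside 22.0%, and higher genes 4.35% beside 21.7%. The largest falls were in the mitotic kinesin KIF20A (-0.50), the kinetochore protein CENPF (-0.49) and E2F2 (-0.44), and the rises were in the spindle checkpoint kinase BUB1 (0.37) and CDK1 (0.34), as log2 fold changes. Scaling by library size alone gave 5 higher and 9 lower genes. Leaving out PM2.5 replicate 2 gave 1 higher gene, and leaving out PM2.5 replicate 3 gave 4. CDK1 lost its call when PM2.5 replicate 2 was left out (adjusted p = 0.0619 by edgeR).

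**Figure D4:**
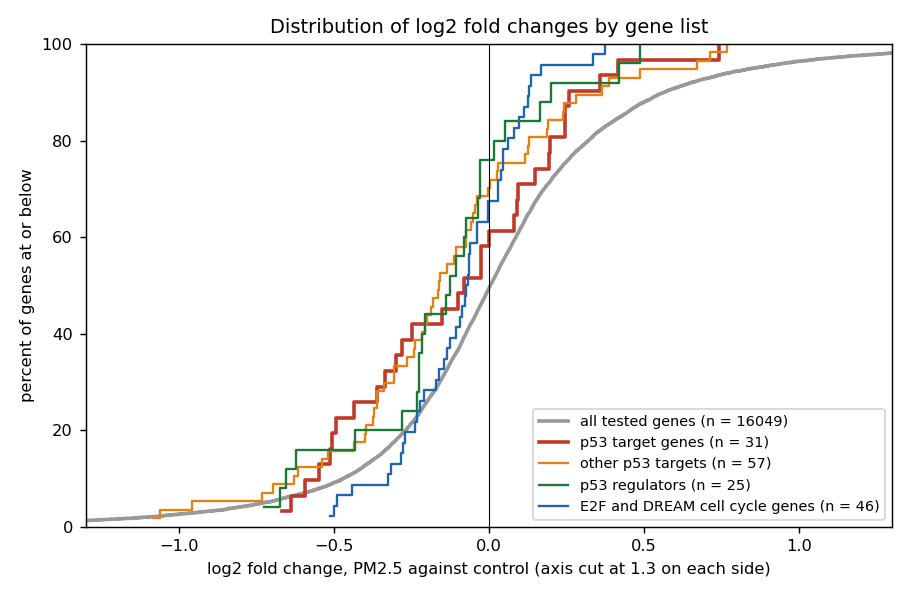
Cumulative share of genes (percent) against log2 fold change, for the 31 p53 target genes, 57 other p53 targets, 25 p53 regulators, 46 E2F and DREAM genes and all 16049 tested genes. The medians were -0.08, -0.16, -0.13, -0.07 and 0.00. At a log2 fold change of 0 the curves of the 4 lists lie above that of all tested genes, and the p53 target lists reach 0.74 (GDF15) and 0.77 (PGF).

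The libraries held 56460553 to 71080000 counts each and detected 18253 to 18623 genes, with TMM factors from 0.964 to 0.980 in control and from 1.02 to 1.04 in PM2.5 libraries. Of 13 sebocyte markers, 11 passed the filter, with 5 higher (SCD, FASN, FADS2, ELOVL3 and PPARG), 3 lower (KRT7, MUC1 and KRT14) and 3 that did not pass, KRT5 and PLIN2 among them. Called markers were 72.7% of the 11 beside 43.6% of all tested genes. Higher markers were 45.5% beside 21.7%, and lower markers 27.3% beside 22.0%. AWAT1 was at 0 in all libraries and MC5R at 0 in all controls. Summed over each list, sebocyte markers were at 2900.2 to 2999 CPM in control and 3560 to 4004 CPM in PM2.5 libraries, fibroblast markers at 46.1 to 50.9 and 55.1 to 59.1 CPM, immune cell markers at 64.8 to 70.9 and 106 to 116 CPM, endothelial markers at 183 to 207 and 80.3 to 91.3 CPM, and melanocyte markers at 12.6 to 13.7 and 12.3 to 15.9 CPM. In the sebocyte sum, group means rose in SCD (482 to 1191 CPM) and FASN (404 to 807 CPM) and fell in KRT7 (1410.6 to 1030.5 CPM). CD3E and MS4A1 were at 0 in all libraries and COL1A2 and TEK at 0 in all controls, and most of the immune and endothelial sums came from CD68 and CDH5. The part of these markers in the results above was not tested.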

How the data were processed

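RNA-seq read counts of 6 libraries were analysed, 3 control and 3 PM2.5. The authors deposited 1 table of whole-number read counts per gene, not normalized, with NCBI Gene IDs and symbols. The submitters' processing notes list the build hg19 and the tools HISAT2 2.0.5, Trimmomatic 0.32, DESeq2 and StringTie 1.3.3b, without their roles. How reads were assigned to genes, and whether strand was used with the stranded mRNA kit, is not given in the sources used here. Without strand, reads where MDM2, PLK3, POLH, TP53I3 or XPC overlaps a gene on the other strand cannot be told apart. A column whose name has 1 more hyphen than its label was read as PM2.5 replicate 1.

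Analyses used R 4.3.3, edgeR 4.0.16, limma 3.58.1 and DESeq2 1.42.0. The filter filterByExpr (minimum count 10, minimum total 15) kept 16049 of 27685 genes, and all 31 p53 targets passed. Counts were fitted with glmQLFit (legacy off) and tested two-sided with glmQLFTest, treatment being the only factor, with Benjamini-Hochberg adjustment over all tested genes. A standard error is the absolute log2 fold change divided by the square root of F, and 95% intervals use it with the moderated degrees of freedom. CPM values carry no prior count. The test was checked on simulated data.

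The p53 targets and the other lists were chosen with earlier results of these data known. All 31 genes were named, with values per library for MDM2, for the 14 called genes with the largest absolute log2 fold change and for their paralogs. From the other lists, CDKN1A and up to 3 called genes per direction with at least 1 CPM were named, and 1 gene that this rule names is not reported here. The values per library given for ASCC3, RRM2B, BLOC1S2 and EDA2R, and the choice of the pair ratios, followed the values. The alternatives were DESeq2, limma-voom, edgeR's legacy fit, 3 other scalings, 2 other filters, a block on replicate number and the omission of each library in turn.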

Additional observations from a re-analysis of the deposited data

How the results depend on the processing

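Each result was recomputed under 15 alternatives, 6 of them leaving out 1 library. Of the 16 calls among the p53 targets, 13 held in all 15 and those of GADD45A, AEN and ASCC3 did not. Leaving out 1 library gave 14 to 18 called p53 targets, 3 to 6 higher and 11 to 12 lower, 5325 to 6753 called genes in all, 1 to 3 higher regulators and 1 to 4 higher E2F and DREAM genes, and 2 to 4 p53 targets past the 1.5-fold threshold. With library size only, 10 p53 targets were higher, 1 passed the 1.5-fold threshold, 5 E2F and DREAM genes were higher and 9 lower, and the median of the p53 targets was 0.00. The 6 genes added to the higher calls, EDA2R, SPATA18, NINJ1, CCNG1, CMBL and DDB2, had positive log2 fold changes with TMM as well, and this scaling moved the median of all genes by 0.08.

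Genes near 0 changed sign without being called. These were TP53I3 and XPC with upper-quartile factors (0.0091 and 0.0091) and TP53I3, FDXR and XPC with library size only (0.054, 0.00024 and 0.055). Leaving out 1 library gave ranges across 0 for ZMAT3 (-0.078 to 0.057), TP53I3 (-0.090 to 0.073), XPC (-0.16 to 0.10), RRM2B (-0.27 to 0.28) and BLOC1S2 (-0.16 to 0.46). Replicate numbers were not used as pairs. Same-numbered libraries deviated together with correlations of -0.0032, 0.079 and 0.089, and differently numbered ones with correlations from -0.13 to 0.059. These small values do not decide whether the libraries were paired. A block on replicate number gave 17 called p53 targets, 5 higher and 12 lower, CCNG1 being the added one, and 7231 called genes in all against 6999. EDA2R had the fewest reads of the p53 targets, 45 to 82 per library, which limits the precision of its fold change.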
